A study of Sus scrofa with 6 samples.

Results

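The 10 genes described here encode the core of serine, glycine and one-carbon metabolism: PHGDH, PSAT1, PSPH, SHMT1, SHMT2, MTHFD1, MTHFD2, MTHFD1L, GLDC and AMT. They were taken by gene name from a table of 18007 genes measured by RNA-seq in porcine embryonic fibroblasts (PEFs) and in the porcine induced pluripotent stem cells (piPSCs) made from them, and all 10 had a row. The 3 untreated fibroblast lines, PEF5, PEF7 and PEF8, came from ear tips at embryonic day 90. The embryos were from a mating of a Longwhite boar (Large White in the study's text) with a Meishan sow. The piPSC lines of the same numbers, labelled ips5, ips7 and ips8, were PEFs that received Oct4, Sox2, Klf4 and cMyc (OSKM). Per the study's methods, the factors were carried by a doxycycline-dependent lentivirus together with the M2rtTA activator, the cells grew in LF2i medium, and picked colonies were seeded on mouse embryonic fibroblast feeders. Each line gave 1 library per state, so the 3 values of a group are 3 lines, and p-values measure the spread between lines.

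Serine is made from the glycolytic intermediate 3-phosphoglycerate by PHGDH, PSAT1 and PSPH in turn. Serine hydroxymethyltransferases (SHMT1 in the cytosol, SHMT2 in mitochondria) split serine into glycine and a one-carbon unit bound to folate, and the MTHFD enzymes carry that unit between oxidation states for the synthesis of purines, thymidylate and formate. Glycine can give a further unit through the mitochondrial glycine cleavage system, of which GLDC and AMT are subunits, and early embryos and pluripotent cells are known for their heavy use of these routes.

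Libraries held between 11010629 and 17836510 fragments, and levels are given as fragments per kilobase of gene and 1000000 fragments (FPKM). The deposited FPKM values summed to between 337074 and 348943 in PEFs and between 420498 and 437853 in piPSCs, so log2 fold changes depend on the scaling: the median of all tested genes was 0.20 as deposited and -0.01 after rescaling to the median ratio. The labels were checked against markers. The 13 fibroblast markers summed to between 7191 and 9724 FPKM in PEFs and between 345 and 500.5 in piPSCs. Of 13 pluripotency markers, 9 had a row (POU5F1, LIN28A, DPPA4 and TDGF1 had none), and their sum was 17.7 to 41.9 FPKM in PEFs, most of it KLF4, against 11 to 22.3 in piPSCs. SOX2 was at most 0.0208 FPKM in PEFs and 0.129 to 3.01 in piPSCs. LIN28B was at most 0.0367 FPKM in PEFs and 2.51, 0.281 and 8.9 in piPSC5, piPSC7 and piPSC8. DNMT3B was 0.139 to 0.244 FPKM in PEFs and 0.244 to 2.28 in piPSCs, and KLF4 was lower in piPSCs (4.45 to 12.9). SALL4, ESRRB, EPCAM and CDH1 were at most 0.117 FPKM in every library. NANOG was 0 in every library other than piPSC7 (0.0919 FPKM), so that defining marker was practically absent from the piPSCs. Other cell types had low summed levels: keratinocyte markers 3.04 to 3.35 FPKM in PEFs and 4.74 to 9.12 in piPSCs, chondrocyte 0.818 to 12.4 and 0.224 to 0.23, skeletal muscle 0.0814 to 0.755 and 0.199 to 14.2, endothelial 0.513 to 2.59 and 0.0382 to 1.15, and leukocyte 0.904 to 2.69 and 0.974 to 3.04. Neural markers summed to 16.9 to 38.8 FPKM in PEFs and 12.6 to 65.2 in piPSCs, mainly through TUBB3. The Y-linked gene DDX3Y had 3439 fragments in PEF8, 4207 in piPSC8 and 0 in the libraries of lines 5 and 7, although the study's text gives all lines as male. Line 8 therefore stood apart, and the members and ratios that moved most without it are also given without it. Any fragments of mouse feeder RNA cannot be told apart here from piPSC fragments, and in bulk RNA fewer cells of a type cannot be told apart from less RNA per cell.

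After reprogramming, 4 members were upregulated and none was downregulated. On the scale of log2(FPKM + 1), GLDC showed the largest difference of the 9 tested members, followed by MTHFD1, MTHFD1L and SHMT1. The order after GLDC depends on the pseudocount: with 0.1, SHMT1 was at 2.30, MTHFD1 at 2.27 and MTHFD1L at 1.56. The 3 genes of serine synthesis, SHMT2 and MTHFD2 did not pass this unpaired test, and AMT was too low to be tested. With the line as a replicate block in limma, PHGDH passed as higher (adjusted p = 0.0116) and MTHFD1L did not pass (adjusted p = 0.0958). A gene passed at an adjusted p under 0.05 in limma on log2(FPKM + 1), two-sided, over the 12428 genes whose mean reached 0.5 FPKM. Of the 9 members tested, 4 passed as higher, where 30.3% of all genes did, and 0 as lower, where 21.5% did. SHMT1 met the filter only through its piPSC values (mean 2.45 FPKM, against 0.401 in PEFs). It could therefore hardly have been called lower or have lain below the PEF values. At an unadjusted p under 0.05, 5 members were higher and 0 lower, and limma's voom on fragments recovered from the FPKM values also called 4 higher and 0 lower. After rescaling to the median ratio or to a sum of 1000000, 3 were called higher. MTHFD1L passed in only 6 of 16 alternative settings. In 4 of the 9, every piPSC value lay above every PEF value (37.3% of all genes), and in 0 below (26.8%). Compared line by line, 6 of the 9 were higher in piPSCs in all 3 lines (42.9%) and 0 lower in all 3 (31.6%). The median log2 fold change of the 9 was 1.01, against 0.20 over all genes tested, and after rescaling to the median ratio it was 0.74 against -0.01.

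**Figure D1:**
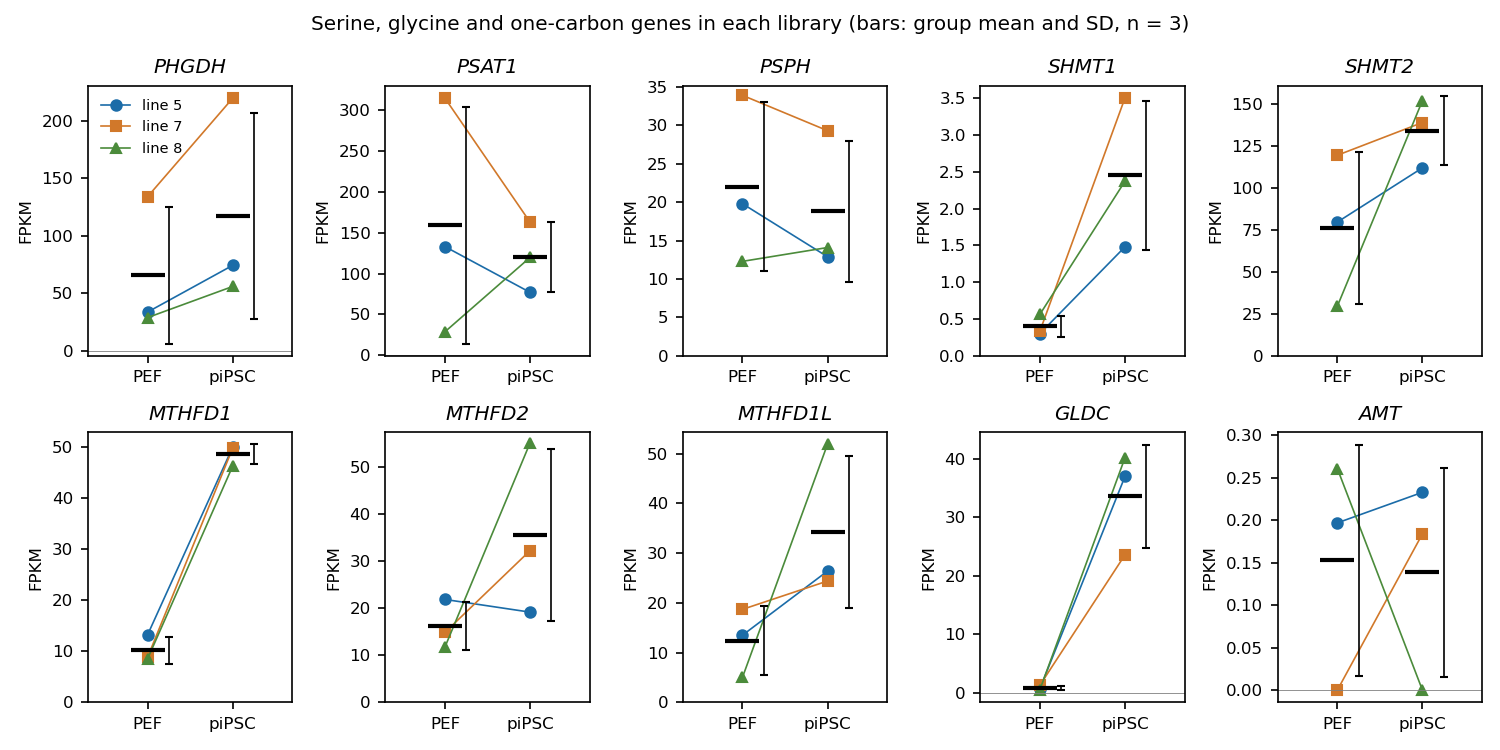
FPKM (linear axes, each including 0) of the 10 genes in each PEF and piPSC library. Thin lines join libraries of the same line, with bars at the group means and error bars of 1 SD (n = 3). GLDC rose from at most 1.31 FPKM in PEFs to at least 23.6 in piPSCs, MTHFD1 lay between 46.2 and 49.9 FPKM in all piPSC libraries, and PHGDH, PSAT1 and PSPH overlapped between the groups.

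The promoters of the 4 upregulated members are shown so that their starts can be compared. Each window runs from 250 bases before to 50 bases after the RefSeq gene start on Sscrofa11.1, written 5' to 3' on the gene's strand. Capitals mark CACGTG, the E-box that Myc proteins are known to bind. The windows are chr12:60414171-60414470, plus strand, for SHMT1, chr7:88471067-88471366, plus strand, for MTHFD1, chr1:15330216-15330515, minus strand, for MTHFD1L, and chr1:215608604-215608903, plus strand, for GLDC.
SHMT1: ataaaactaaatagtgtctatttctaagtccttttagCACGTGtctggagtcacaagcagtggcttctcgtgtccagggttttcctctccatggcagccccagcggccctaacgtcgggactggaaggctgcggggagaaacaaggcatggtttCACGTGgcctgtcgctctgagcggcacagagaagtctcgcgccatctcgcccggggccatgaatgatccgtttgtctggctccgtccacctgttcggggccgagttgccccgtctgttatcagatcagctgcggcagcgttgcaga
MTHFD1: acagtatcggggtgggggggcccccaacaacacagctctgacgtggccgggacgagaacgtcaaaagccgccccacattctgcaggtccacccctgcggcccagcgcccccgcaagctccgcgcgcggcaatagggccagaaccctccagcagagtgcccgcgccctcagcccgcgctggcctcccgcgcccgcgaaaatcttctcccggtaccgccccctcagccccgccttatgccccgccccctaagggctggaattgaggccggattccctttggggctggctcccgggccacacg
MTHFD1L: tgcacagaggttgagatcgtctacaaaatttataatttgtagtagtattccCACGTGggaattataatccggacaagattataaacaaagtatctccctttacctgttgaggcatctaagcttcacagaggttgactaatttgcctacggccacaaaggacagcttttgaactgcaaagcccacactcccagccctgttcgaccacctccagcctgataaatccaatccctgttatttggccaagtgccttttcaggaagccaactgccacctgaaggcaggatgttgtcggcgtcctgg
GLDC: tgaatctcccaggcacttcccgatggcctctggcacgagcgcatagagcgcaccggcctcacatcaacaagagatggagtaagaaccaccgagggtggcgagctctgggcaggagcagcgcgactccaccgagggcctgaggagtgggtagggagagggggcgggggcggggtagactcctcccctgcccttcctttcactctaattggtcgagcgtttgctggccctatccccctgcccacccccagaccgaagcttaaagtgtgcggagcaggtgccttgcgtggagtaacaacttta
SHMT1 held the E-box at positions -213 and -96 from the gene start, and MTHFD1L at -199. Of the 10 members' windows, 2 held CACGTG, against 7.91% of 19569 promoters of the same length. The ATF4 element TGATGNAA, searched on both strands, was in 0 of the 10 and in 2.81% of all. A match describes letters and not binding. RefSeq and the deposited table placed the gene starts 5 bases apart for SHMT1, 57 for MTHFD1, 478 for MTHFD1L and 438 for GLDC. For the other members the distance was 19426 bases for MTHFD2, 3672 for PSAT1, 996 for SHMT2, 124 for PSPH, 44 for AMT and 3 for PHGDH. The windows of MTHFD2, PSAT1, SHMT2, MTHFD1, MTHFD1L and GLDC do not hold the start in the deposited table. The motif counts therefore describe RefSeq starts.

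The serine synthesis genes were abundant in both states and differed more between lines than between states. PHGDH (ENSSSCG00000006717, Sscrofa11.1 chromosome 4 from 101445977 to 101478147, minus strand) encodes the dehydrogenase that commits 3-phosphoglycerate to serine. Its level was 33.5, 134 and 28.7 FPKM in PEF5, PEF7 and PEF8 and 74.2, 219.8 and 55.8 in piPSC5, piPSC7 and piPSC8. Line 7 was the highest and line 8 the lowest in both states, and the groups overlapped. Every piPSC line lay above its own PEF line, by 2.21-fold, 1.64-fold and 1.94-fold in lines 5, 7 and 8. The unpaired log2 fold change was 0.92 (SE 0.72, 95% interval -0.80 to 2.65, adjusted p = 0.314), which did not pass. With the line as a replicate block the same difference had an SE of 0.16 and an adjusted p of 0.0116 and passed, as did 28% of all genes in the upward direction.

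PSAT1 (ENSSSCG00000005287, chromosome 1 from 231146345 to 231171361, plus strand) encodes the aminotransferase of the second step. Its level was 133, 315 and 28.6 FPKM in PEF5, PEF7 and PEF8 and 76.9, 163 and 119.8 in piPSC5, piPSC7 and piPSC8. The highest PEF value was 11-fold the lowest, whereas in piPSCs this ratio was 2.11. On the scale of log2(FPKM + 1), the piPSC line differed from its PEF line by -0.78 in line 5, -0.95 in line 7 and 2.03 in line 8. The mean difference was 0.10 (SE 0.82, 95% interval -1.87 to 2.06, limma adjusted p = 0.926), and it turned to -0.87 without line 8. PSPH (ENSSSCG00000007748, chromosome 3 from 16877780 to 16903058, plus strand) encodes the phosphatase that releases serine. Its level was 19.8, 33.9 and 12.3 FPKM in PEF5, PEF7 and PEF8 and 12.9, 29.3 and 14.1 in piPSC5, piPSC7 and piPSC8. Line 7 was again the highest in both states, and the groups overlapped almost completely (log2 fold change -0.20, SE 0.44, limma adjusted p = 0.717). A gene listed as ENSSSCG00000036659, at 31.6 to 54 FPKM, overlaps PSPH on the other strand, and how reads shared by overlapping genes were counted is not given in the sources used here.

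Of the serine hydroxymethyltransferase genes, the cytosolic one was upregulated from a low level, and the mitochondrial one was the more abundant in every library. SHMT1 (ENSSSCG00000036208, chromosome 12 from 60414416 to 60436438, plus strand) was at 0.303, 0.336 and 0.564 FPKM in PEF5, PEF7 and PEF8. It reached 1.48, 3.5 and 2.37 FPKM in piPSC5, piPSC7 and piPSC8, so every piPSC library lay above every PEF library. Its group means were 0.401 ± 0.142 and 2.45 ± 1.01 FPKM (SD, n = 3), a 6.11-fold ratio. The log2 fold change was 1.26 (SE 0.28, 95% interval 0.59 to 1.94, limma adjusted p = 0.0105). Since a pseudocount of 1 exceeds the PEF levels, it understates the change, and with a pseudocount of 0.1 the value was 2.30. The PEF libraries had 24, 25 and 38 fragments of SHMT1 and the piPSC libraries 99, 185 and 116. SMCR8 overlaps the end of SHMT1 by 4189 bp on the other strand, and its level was also higher in every piPSC library, at 2.89, 3.16 and 2.72 FPKM in PEF5, PEF7 and PEF8 and 5.3, 3.8 and 5.46 in piPSC5, piPSC7 and piPSC8. Whether counting used the strand is not given in the sources used here, so fragments in that stretch cannot be assigned to either gene, and their part in the SHMT1 difference was not tested.

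SHMT2 (ENSSSCG00000037077, chromosome 5 from 22534784 to 22539962, plus strand) encodes the mitochondrial enzyme. Its level was 79.7, 119.5 and 29.6 FPKM in PEF5, PEF7 and PEF8 and 112, 139 and 152 in piPSC5, piPSC7 and piPSC8. All piPSC lines lay above their own PEF lines, but PEF7 exceeded piPSC5, and PEF8 was the lowest library by far. The log2 fold change of 1.01 (SE 0.48, 95% interval -0.15 to 2.16, limma adjusted p = 0.121) did not pass. It rested on single libraries, being 1.43 without PEF7 (adjusted p = 0.0435), 0.44 without PEF8 (adjusted p = 0.181) and 0.35 without line 8 (adjusted p = 0.334). The difference in line 8 alone was 2.32 on the log2 scale, against 0.48 and 0.22 in lines 5 and 7.

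Among the genes that interconvert folate-bound one-carbon units, the cytosolic MTHFD1 and the mitochondrial MTHFD1L were upregulated, the latter with a call that few alternatives kept, and MTHFD2 did not pass. MTHFD1 (ENSSSCG00000002269, chromosome 7 from 88471374 to 88537389, plus strand) encodes a trifunctional enzyme that works as synthetase, cyclohydrolase and dehydrogenase. Its level was 13.2, 8.82 and 8.5 FPKM in PEF5, PEF7 and PEF8 and 49.9, 49.7 and 46.2 in piPSC5, piPSC7 and piPSC8. The piPSC values lay close together and far above the PEF values, with means of 48.6 ± 2.04 and 10.2 ± 2.64 FPKM (SD, n = 3), a 4.77-fold ratio. The log2 fold change was 2.17 (SE 0.19, 95% interval 1.71 to 2.64, limma adjusted p = 0.000457), and it was 1.84, 2.37 and 2.31 in lines 5, 7 and 8.

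MTHFD1L (ENSSSCG00000004092, chromosome 1 from 15148470 to 15329787, minus strand) encodes the mitochondrial synthetase that releases formate. Its level was 13.5, 18.7 and 5.02 FPKM in PEF5, PEF7 and PEF8 and 26.4, 24.4 and 51.9 in piPSC5, piPSC7 and piPSC8. The groups did not overlap, yet line 8 held both the lowest and the highest value. The log2 fold change of 1.47 (SE 0.49, 95% interval 0.29 to 2.65, limma adjusted p = 0.0433) passed narrowly. It passed in 6 of 16 alternatives and did not with the line as a replicate block (adjusted p = 0.0958) or after rescaling to the median ratio (adjusted p = 0.0937). With single libraries left out, it passed only without PEF7, and the adjusted p ran from 0.0343 (without PEF7) to 0.113 (without piPSC8). Without line 8 the log2 fold change was 0.64 (adjusted p = 0.0774).

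MTHFD2 (ENSSSCG00000008289, chromosome 3 from 68820683 to 68853067, minus strand) encodes the mitochondrial dehydrogenase and cyclohydrolase that is known for high levels in embryonic and tumour cells. Its level was 21.9, 14.9 and 11.8 FPKM in PEF5, PEF7 and PEF8 and 19.2, 32.3 and 55.2 in piPSC5, piPSC7 and piPSC8. Only piPSC5 fell within the PEF range, and the lines ranked 5, 7, 8 in PEFs and 8, 7, 5 in piPSCs from high to low. The log2 fold change of 1.00 (SE 0.40, 95% interval 0.04 to 1.97, limma adjusted p = 0.0751) did not pass. It was 1.37 without piPSC5 (adjusted p = 0.0298), 0.63 without piPSC8 (adjusted p = 0.169) and 0.44 without line 8 (adjusted p = 0.33). MOB1A, at 39.9 to 41.7 FPKM in PEFs and 58.7 to 64.6 in piPSCs, overlaps MTHFD2 by 604 bp on the other strand.

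The glycine cleavage genes were at opposite ends: GLDC had the strongest rise of the members, and AMT was barely detected in either state. GLDC (ENSSSCG00000005199, chromosome 1 from 215608416 to 215716694, plus strand) encodes the decarboxylase that starts glycine cleavage. Its level was 0.727, 1.31 and 0.556 FPKM in PEF5, PEF7 and PEF8 and 37, 23.6 and 40.2 in piPSC5, piPSC7 and piPSC8. The lowest piPSC value was far above the highest PEF value, and the means of 33.6 ± 8.82 and 0.864 ± 0.395 FPKM (SD, n = 3) stood at a 38.9-fold ratio. By line, the ratio was 50.9-fold, 18-fold and 72.4-fold in lines 5, 7 and 8. The log2 fold change on log2(FPKM + 1) was 4.20 (SE 0.27, 95% interval 3.55 to 4.85, limma adjusted p = 0.000217), at percentile 99.8 of all genes tested, and 5.32 with voom on fragments. The PEF libraries held 77, 130 and 50 fragments of GLDC and the piPSC libraries 3307, 1667 and 2631.

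AMT (ENSSSCG00000022975, chromosome 13 from 31995595 to 32002470, minus strand) encodes the aminomethyltransferase that passes the one-carbon unit to folate. It had 8, 0 and 9 fragments in PEF5, PEF7 and PEF8 and 8, 5 and 0 in piPSC5, piPSC7 and piPSC8. These correspond to at most 0.261 FPKM, so no difference was detectable at this depth, and a count of 0 allows up to 3 fragments (counting error only). TCTA, at 3.03 to 8.37 FPKM, overlaps AMT on the other strand. By RefSeq positions, ZBTB25 overlaps MTHFD1, NXPH4 overlaps SHMT2 and LOC110255542 overlaps GLDC. Any part of these overlaps in the levels was not tested.

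**Figure D2:**
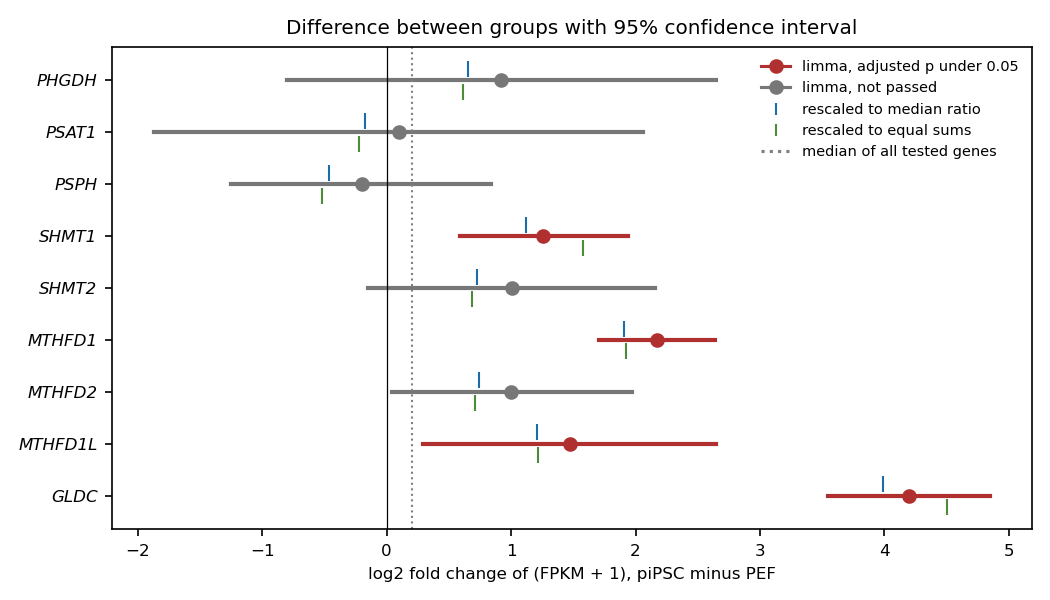
Log2 fold change of piPSCs against PEFs on log2(FPKM + 1) for the 9 tested members (points, limma estimate, bars, 95% interval, n = 3 per group), with ticks for the values after both rescalings and a dotted line at the median of all genes tested, 0.20. The intervals of GLDC, MTHFD1, MTHFD1L and SHMT1 lie above 0 and these genes passed after adjustment, that of MTHFD2 starts at 0.04 and it did not pass, and that of PSAT1 runs from -1.87 to 2.06.

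The order of the members by length-scaled level (FPKM) differed between the states, with GLDC and MTHFD1 placed higher in piPSCs. In PEFs the order by mean was PSAT1, SHMT2, PHGDH, PSPH, MTHFD2, MTHFD1L and MTHFD1, each overlapping its neighbour, then GLDC and SHMT1, which overlapped each other below all of those, and last AMT. In piPSCs SHMT2, PSAT1 and PHGDH led and overlapped each other. Below them, without overlap, came MTHFD1, MTHFD2, MTHFD1L, GLDC and PSPH, each overlapping its neighbour, and then SHMT1 and AMT apart from the rest. GLDC thus had a mean of 0.864 FPKM in PEFs, under PSPH at 22, and of 33.6 in piPSCs, above PSPH at 18.8.

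The balance between mitochondrial and cytosolic enzyme genes was compared as the log2 ratio of (FPKM + 1) within each library. The library's scaling nearly cancels only where both genes lie well above the pseudocount of 1. SHMT1, at 0.303 to 0.564 FPKM in PEFs, did not. The 3 ratios were tested over libraries with an exact permutation test, two-sided, which cannot give a p under 0.1 here. MTHFD2 exceeded MTHFD1 in all PEFs, with log2 ratios of 0.68, 0.70 and 0.43 in PEF5, PEF7 and PEF8, and the ratio was -1.33, -0.61 and 0.25 in piPSC5, piPSC7 and piPSC8. The groups did not overlap, and the mean difference was -1.17 (exact permutation p = 0.1, the smallest possible, and 0.3 adjusted over the 3 ratios). In line 8 the ratio differed by -0.18, against -2.02 and -1.31 in lines 5 and 7. The mean difference was -0.78 without piPSC5, -1.58 without piPSC8 and -1.66 without line 8.

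The ratio of MTHFD1L to MTHFD1 was 0.03, 1.00 and -0.66 in PEF5, PEF7 and PEF8 and -0.89, -1.00 and 0.16 in piPSC5, piPSC7 and piPSC8. It was lower in piPSCs in lines 5 and 7 and higher in line 8, and the difference of -0.70 was within the spread (exact permutation p = 0.3, adjusted 0.45). It was -0.26 without PEF7, -1.09 without PEF8, -1.07 without piPSC8 and -1.46 without line 8. SHMT2 over SHMT1 was 5.95, 6.50 and 4.29 in the PEF lines 5, 7 and 8 and 5.51, 4.96 and 5.50 in the piPSC lines. The mean difference of -0.26 (exact permutation p = 0.8) rested on single libraries, being 0.20 without PEF7 and -0.90 without PEF8. It also depended on the scaling, being -0.89 after rescaling to a sum of 1000000 and -0.39 after rescaling to the median ratio. With a pseudocount of 0.1 it was -1.28. SHMT2 had between 39.8 and 355 times the FPKM of SHMT1.

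**Figure D3:**
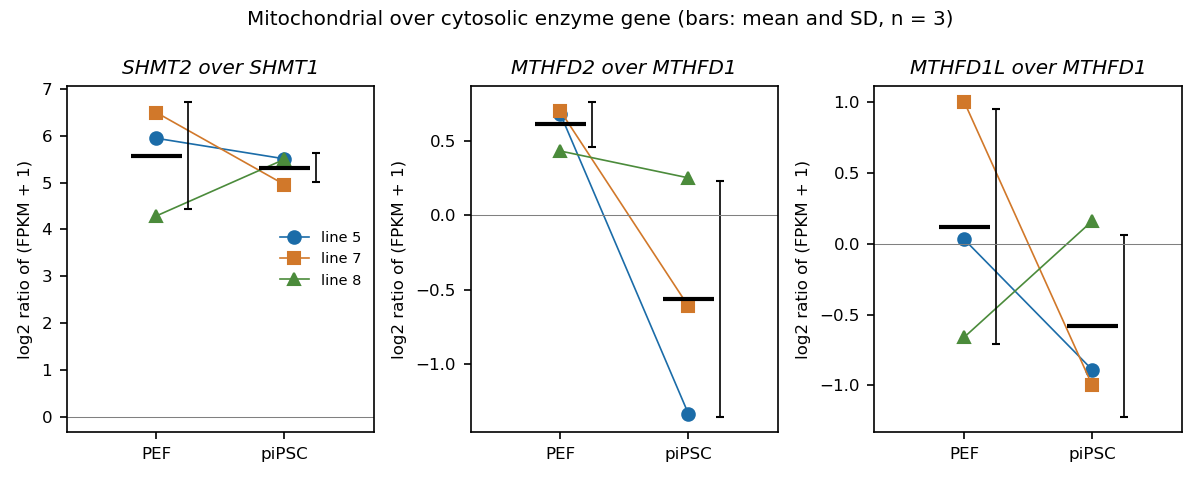
Log2 ratio of (FPKM + 1) of the mitochondrial to the cytosolic enzyme gene in each PEF and piPSC library, for SHMT2 over SHMT1, MTHFD2 over MTHFD1 and MTHFD1L over MTHFD1. The groups do not overlap for MTHFD2 over MTHFD1 (0.43 to 0.70 in PEFs, -1.33 to 0.25 in piPSCs) and overlap for the others.

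The members also differed among the PEF lines. PEF8 was the lowest PEF library in 8 of the 9 tested members, against 33.5% of all genes. The order PEF7, PEF5, PEF8 from high to low held for 6 of the 9 (PHGDH, PSAT1, PSPH, SHMT2, MTHFD1L and GLDC), against 16.1% of all genes. On the other pathway lists it held for 7 of 14 genes of ATF4 and its targets, 3 of 6 folate carriers, 4 of 11 serine and glycine carriers, 5 of 16 other serine and glycine enzymes, 3 of 11 methionine cycle genes, 1 of 11 other folate enzymes, and for no gene of the choline or lipoylation lists. This order was noticed after the values were seen and is a description of 3 libraries. MTHFD1 and MTHFD2 had PEF5 highest, and SHMT1 had PEF8 highest. Line 8 had the largest ratio of piPSC to PEF among the lines for PSAT1, PSPH, SHMT2, MTHFD2, MTHFD1L and GLDC, at 2.03, 0.18, 2.32, 2.13, 3.13 and 4.73 on the scale of log2(FPKM + 1).

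**Figure D4:**
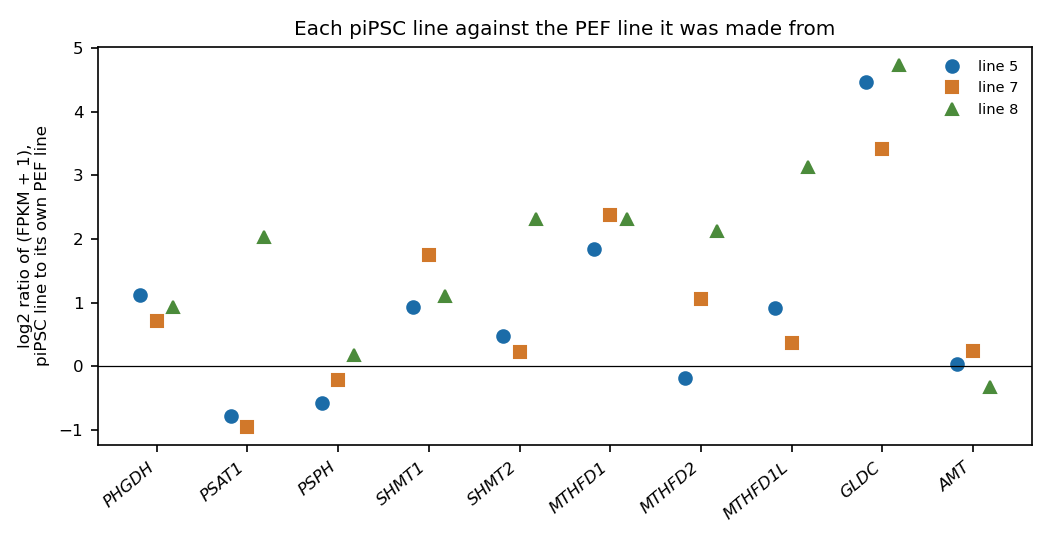
Difference of each piPSC line from its own PEF line on log2(FPKM + 1), with 1 point per line for the 10 members. AMT, which was not tested, is drawn too. PHGDH lies between 0.71 and 1.12 in all lines, whereas PSAT1 is at -0.78, -0.95 and 2.03 and MTHFD2 at -0.18, 1.06 and 2.13 in lines 5, 7 and 8.

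The remaining genes of the pathway were read from 8 lists of 92 genes, of which 76 were tested. Of these, 25 were higher in piPSCs, 17 lower and 34 did not pass, where 30.3% of all genes were higher and 21.5% lower. The shares of these 76 were thus near those of all genes. The same all-gene shares are the comparison for the counts of each list below. The median log2 fold change of the 76 was 0.25, against 0.20 over all genes. After rescaling each library to a sum of 1000000 the split was 20 higher and 22 lower, so no common direction is given for the 76. Without line 8 it was 20 and 16. GCSH, FTCD, BHMT, BHMT2, DMGDH, TDH and AGXT had no row under these names.

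Of 11 other folate enzymes, 5 were higher and 6 did not pass (median 0.33, and 0.05 after rescaling to a sum of 1000000). ATIC and GART, which use folate-bound formyl units to build purines, had log2 fold changes of 2.77 (adjusted p = 0.00109, limma) and 2.29 (adjusted p = 0.00222). TYMS, thymidylate synthase, went from 15.3 to 60.6 FPKM (log2 fold change 1.92, adjusted p = 0.000488), and FPGS, which adds glutamates to folates, rose by 2.06 on the log2 scale (adjusted p = 0.000416). ALDH1L2, the mitochondrial formyl-folate dehydrogenase, rose by 1.63 (adjusted p = 0.0254) and passed in 10 of 16 alternatives. MTHFD2L and ALDH1L1 had values of -0.09 and -0.36 and did not pass.

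Of 6 genes on the list of folate carriers, 2 were higher and 2 lower (median 0.08), and 1 of the higher ones, SLC19A2, is known for carrying thiamine. SLC19A1, the reduced folate carrier, went from a mean of 4.67 to 34.8 FPKM (log2 fold change 2.65, limma adjusted p = 0.000909). SLC19A2, of the same family, rose by 1.41 (adjusted p = 0.013). The folate receptor gene FOLR2 fell from 13.3, 26 and 12.7 FPKM in PEF5, PEF7 and PEF8 to 0.262, 2.28 and 0 (adjusted p = 0.00223). FOLR1 fell likewise, from between 3.21 and 5.8 FPKM to at most 0.145, with 6, 3 and 0 fragments in the piPSC libraries (adjusted p = 0.000798).

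All 4 tested genes of the rest of the glycine cleavage and lipoylation list were higher (median 1.50), and 3 after rescaling. DLD, the dehydrogenase subunit that glycine cleavage shares with other mitochondrial complexes, went from 34.8 ± 1.66 to 111 ± 20.8 FPKM (SD, n = 3, log2 fold change 1.63, limma adjusted p = 0.000798). LIPT1, LIPT2 and LIAS act in making and attaching lipoate. They rose by 1.98 (adjusted p = 0.000728), 1.37 (adjusted p = 0.00681) and 0.78 (adjusted p = 0.0346), and LIAS passed in 6 of 16 alternatives and not with the line as a replicate block (adjusted p = 0.0731).

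In the methionine cycle, 5 of 11 genes were higher and 2 lower (median 0.68). Without line 8, 3 were higher and 1 lower, and 1 was also lower without PEF5 or without any 1 of the piPSC libraries. AHCY, which clears S-adenosylhomocysteine, went from 6.68 to 84.1 FPKM (log2 fold change 3.49, limma adjusted p = 0.00018). MTR and MTRR, methionine synthase and its reductase, rose by 1.48 (adjusted p = 0.0102) and 1.45 (adjusted p = 0.00184), and MMACHC, which handles their cobalamin cofactor, by 0.89 (adjusted p = 0.00906). MAT1A was at 5.72, 1.36 and 33.4 FPKM in PEFs and had 4, 0 and 0 fragments in piPSCs (adjusted p = 0.032, 10 of 16 alternatives). AHCYL2 fell by 1.34 on the log2 scale (adjusted p = 0.0124). Of 3 tested genes of the choline route, ALDH7A1 was higher (1.60, adjusted p = 0.00446) and the other 2 did not pass (median 0.29).

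Of 16 other enzymes that use serine or glycine, 4 were higher and 6 lower (median -0.54), and 3 were lower without PEF5, without piPSC5 or without piPSC7. GCAT, which forms glycine and acetyl-CoA in threonine breakdown, had the largest rise among these enzymes. Its level was 2.14, 3.59 and 2.83 FPKM in PEFs and 48.7, 60.7 and 46.5 in piPSCs, an 18.2-fold ratio of means (log2 fold change 3.79, limma adjusted p = 0.000145). PTDSS2 and PTDSS1, which make phosphatidylserine, rose by 1.94 (adjusted p = 0.00107) and 1.07 (adjusted p = 0.00461), and GCLC of glutathione synthesis by 1.22 (adjusted p = 0.0116). SERINC3 and SERINC1, named for a proposed part in bringing serine into membranes, fell, with log2 fold changes of -2.19 (adjusted p = 0.000676) and -1.67 (adjusted p = 0.000671). The serine dehydratase gene SDS fell by 1.48 (adjusted p = 0.0101), and its relative SDSL went from 37, 120 and 17 fragments in PEFs to 1, 0 and 0 in piPSCs (adjusted p = 0.0268, 12 of 16 alternatives).

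Serine and glycine carriers had 3 of 11 genes higher and 2 lower (median 0.67), and 2 higher without PEF5, PEF8, piPSC5 or piPSC8, each left out in turn. SFXN2 and SFXN1, of the sideroflexins that carry serine into mitochondria, rose by 1.79 (limma adjusted p = 0.00157) and 1.16 (adjusted p = 0.00532). SLC1A4, a neutral amino acid carrier, rose by 1.16 (adjusted p = 0.0436) and passed in 6 of 16 alternatives. The glycine carriers SLC6A9 of the cell membrane and SLC25A38 of mitochondria fell, with log2 fold changes of -2.05 (adjusted p = 0.00755) and -1.24 (adjusted p = 0.00473).

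ATF4 is known to switch on PHGDH, PSAT1, SHMT2 and MTHFD2 under amino acid shortage. Of ATF4 and its textbook targets, 1 of 14 was higher and 5 lower (median -0.96). After rescaling to the median ratio 5 were lower, and after rescaling to a sum of 1000000 8 were lower. The others did not pass in either rescaling. Over all genes, 2667 were lower as deposited, 3257 after the median ratio and 3383 after the sum of 1000000. ATF4 itself was at 109.9, 132 and 120.4 FPKM in PEFs and 66.1, 126 and 87.4 in piPSCs (log2 fold change -0.42, limma adjusted p = 0.195). NUPR1, CEBPB and TRIB3 fell, with log2 fold changes of -5.72 (adjusted p = 0.000438), -3.54 (adjusted p = 0.00223) and -2.80 (adjusted p = 0.00125), as did ATF5 with -2.17 (adjusted p = 0.0454, 9 of 16 alternatives). ASNS, asparagine synthetase, rose by 1.33 (adjusted p = 0.043, 7 of 16 alternatives).

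DNA replication genes moved with the groups as well. Of 29 tested, 28 were higher in piPSCs and 1 did not pass, with a median of 1.75. With 1 library left out in turn, 20 to 28 were higher. Without line 8, which leaves fewer libraries in both groups, 12 were higher, and all genes called higher fell from 3763 to 2935. Their median level on log2(FPKM + 1) was 3.43, 1.95 and 2.28 in PEF5, PEF7 and PEF8 and 4.54, 4.09 and 4.56 in piPSC5, piPSC7 and piPSC8. Their part in the differences of the members was not tested.

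**Figure D5:**
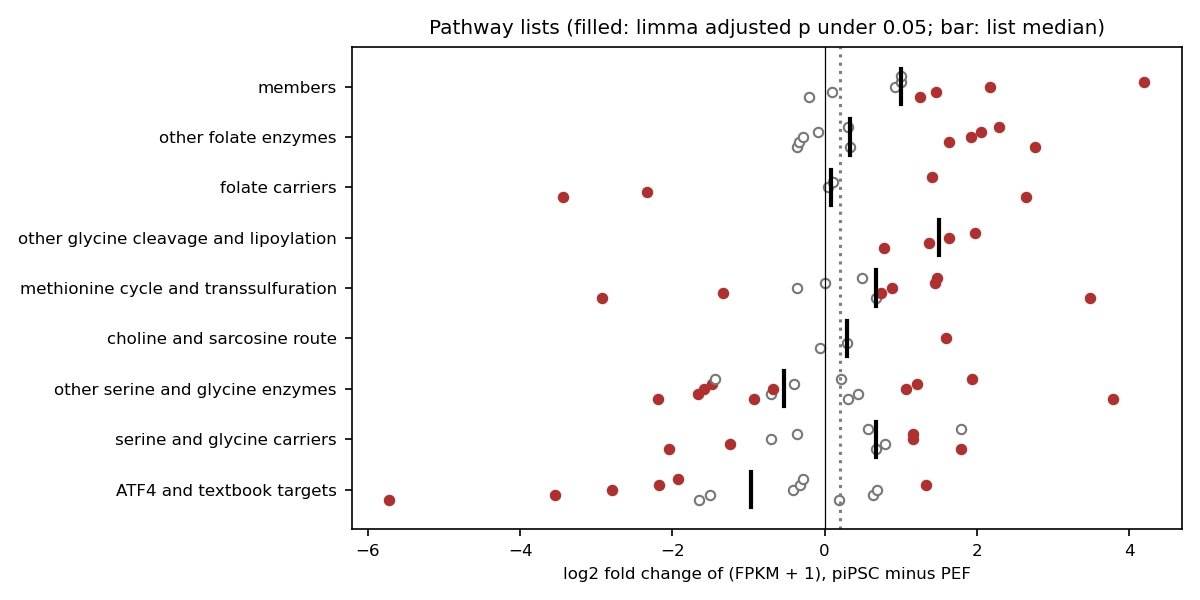
Log2 fold change of piPSCs against PEFs on log2(FPKM + 1) for each tested gene, by list, with filled points for genes that passed at a limma adjusted p under 0.05. Black bars mark list medians and the dotted line the median of all genes, 0.20. All 4 genes of the glycine cleavage and lipoylation list lie to the right as filled points, while the ATF4 list has 5 filled points to the left and 1 to the right.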

How the data were processed

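The deposited table holds FPKM, computed by the authors for each gene and library from poly-A libraries with paired 150 bp reads. The submitters' processing notes name HISAT2 2.1.0, Bowtie2 2.2.3, HTSeq 0.6.0 and Sscrofa11.1. The annotation release is not given in the sources used here. FPKM values were whole multiples of 1 fragment for 99.98% of genes (within 0.0002 fragments plus 3e-08 of the value), which gave fragments per library (11010629 to 17836510).

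Groups were compared with limma 3.58.1 in R 4.3.3 (trend, two-sided, Benjamini-Hochberg) on log2(FPKM + 1), without a block, after the unpaired test of the study's general statistics, although its RNA-seq text compares each piPSC line with its own PEF line. The fit was tested on simulated data. Each piPSC line came from the PEF line of its number, so lines are paired by design. Deviations of same-numbered libraries correlated at 0.0921, 0.0946 and 0.08, and those of PEF and piPSC libraries of different numbers at -0.12 to 0.055. The 16 alternatives were no filter, a mean of at least 1 FPKM, a replicate block, a pseudocount of 0.1, rescaling to the median ratio or a sum of 1000000, quantile normalization, no trend, voom on fragments, each library left out, and line 8 left out, the last chosen after the values were seen. Ratios, motifs and figures used Python 3.11.15, scipy 1.17.1, pysam 0.24.0 and matplotlib 3.10.9. Named are all members, and of each pathway list up to 4 passing genes per direction by size of change, plus DLD, MTHFD2L, ALDH1L1, ALDH1L2, TYMS, MTR and ATF4. Some genes of this rule are not reported here. Members and lists were chosen with earlier results of these data known. RefSeq protein sequences were not used here.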

Additional observations from a re-analysis of the deposited data

Results flagged for a closer look

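In some members the lines moved in opposite directions after reprogramming. On the scale of log2(FPKM + 1), PSAT1 differed by -0.78 in line 5, -0.95 in line 7 and 2.03 in line 8. MTHFD2 differed by -0.18, 1.06 and 2.13 in the same lines, and PSPH by -0.58, -0.21 and 0.18. Each line has 1 library per state, so these differences between lines were not tested.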

How the results depend on the processing

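SHMT1, MTHFD1 and GLDC passed in the same direction in all 16 alternatives, and the count of members called higher was 3 to 5. As deposited 3763 genes were higher and 2667 lower, against 2826 and 3257 after rescaling to the median ratio and 2627 and 3383 after rescaling to a sum of 1000000. With a 2-fold minimum 2505 genes were higher. With the line as a replicate block 3483 genes and 4 members were higher. The block gained PHGDH and lost MTHFD1L and LIAS, and it changed no other call of a named gene. SHMT2 over SHMT1 ran from -0.90 to 0.20 with 1 library left out, reversing without PEF7 (0.20), was -1.28 with a pseudocount of 0.1 and -0.99 without line 8. PSAT1 reversed to -0.17 (median ratio), -0.22 (sum of 1000000) and -0.87 (without line 8), and ran from -0.83 without PEF8 to 0.88 without PEF7. PSPH ran from -0.55 without piPSC7 to 0.16 without PEF7, and was 0.01 without piPSC5. MTHFD2L ran from -0.24 without piPSC5 to 0.14 without piPSC8, and was 0.07 under quantile normalization and 0.12 without line 8. The cause was not tested. Leaving out PEF5 or piPSC5 lowered the other pathway genes called lower from 17 to 12, and all genes called lower from 2667 to 2157 and 2091. ALDH1L2, LIAS, MAT1A, SDSL, SLC1A4, ATF5 and ASNS lost their calls without some single libraries, and MTR without line 8. Depth limits AMT and SHMT1 in PEFs.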
